A study of Mus musculus with 18 samples.

Results

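The genes described here are 10 components and response genes of the Wnt pathway in mouse embryonic stem cells (ESCs): Dkk1, Axin1, Axin2, Apc, Gsk3b, Ctnnb1, Tcf7, Tcf7l1, Tcf7l2 and Sp5. They were chosen by name, by their known role in the pathway, from 51467 genes in the count table. Earlier results of these data were known when the choice was made. All 10 were among the 12851 genes tested, which had 3 CPM (counts scaled to the library total) or more in at least 3 libraries. Sp5 met that limit in the 9 KO libraries and in 0 WT libraries, so it passed through KO cells alone and had to differ. Dkk1 met it in 2 WT low polysome, 3 WT high polysome and 1 KO low polysome libraries.

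The data come from polysome profiling of wild-type (WT) ESCs, which the study's methods name as the V6.5 line, and of Dgcr8 knockout (KO) ESCs, a single line made earlier. DGCR8 helps cut microRNA precursors out of primary transcripts, and cells without it make no canonical microRNAs. Both genotypes grew in serum medium with LIF and 2i, that is, with the MEK inhibitor PD0325901 and the GSK3 inhibitor CHIR99021, and all cells received 100 µg/ml of cycloheximide, which holds ribosomes on messages, for 2 min before lysis. Each of 6 sucrose gradients, 3 per genotype, gave a monosome library, a low polysome library from messages with 2 to 4 ribosomes and a high polysome library from messages with 4 or more. The 18 libraries of 3′ end reads thus form 6 groups of 3.

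In canonical Wnt signalling, a Wnt ligand binds a Frizzled receptor with LRP5 or LRP6, and DKK1 is a secreted protein that blocks this step at LRP5 and LRP6. Without signal, AXIN1, AXIN2, APC and the kinase GSK3B form a complex that marks β-catenin, encoded by Ctnnb1, for destruction. When β-catenin accumulates, it enters the nucleus and acts with the factors encoded by Tcf7, Tcf7l1, Tcf7l2 and Lef1 on genes such as Axin2 and Sp5, which are widely used as readouts of the pathway. In ESCs, TCF7L1 acts mainly as a repressor of pluripotency genes, and inhibition of GSK3 by CHIR99021 stabilises β-catenin. Since both genotypes grew with this inhibitor, all levels and changes below are those of cells under GSK3 inhibition.

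MicroRNAs of the miR-290 cluster, which naive ESCs express, and of the miR-302 cluster, known mainly from primed cells, share a seed, the bases that pair with targets. The mature sequences are shown because their seed was searched for in the 3′ untranslated regions (UTRs) of the 10 genes. Of 7 microRNAs of these clusters in the RefSeq table (GRCm38.p6) with AAGUGC at bases 2 to 7, 5 have the full seed AAGUGCU. Bases 2 to 8 are in capitals. The first 5 of them lie at chr7:3218968-3218989, chr7:3220691-3220712, chr7:3220815-3220837, chr3:127545275-127545297 and chr3:127545665-127545687, and the last 2 at chr7:3218674-3218697 and chr7:3219529-3219550, all on the plus strand.
mmu-miR-291a-3p: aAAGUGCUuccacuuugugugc
mmu-miR-294-3p: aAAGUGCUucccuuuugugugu
mmu-miR-295-3p: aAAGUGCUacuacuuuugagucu
mmu-miR-302b-3p: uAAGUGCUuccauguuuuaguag
mmu-miR-302d-3p: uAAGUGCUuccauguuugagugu
mmu-miR-290a-3p: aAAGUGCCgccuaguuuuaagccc
mmu-miR-291b-3p: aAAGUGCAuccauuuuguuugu

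A complement of this seed was found in the 3′ UTR of 4 of the 10 genes, and 3 of these matches had 7 or 8 bases. A match was counted as 7mer-A1 where bases 2 to 7 paired and an A followed, as 7mer-m8 where bases 2 to 8 paired, and as 8mer where both held. The printed stretches are from the GENCODE M21 transcript of each gene (GRCm38), in the sense of the message, with the match in capitals.
Dkk1, 7mer-A1, chr19:30546959-30546980, minus strand: atcctcagtgtgGCACTTAcct
Tcf7, 7mer-m8, chr11:52252457-52252478, minus strand: cctataaccccAGCACTTgcga
Gsk3b, 8mer, chr16:38240593-38240614, plus strand: cgggaaagaccAGCACTTActt

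The match of Dkk1 lies at base 217 of a 3′ UTR of 1322 bases, that of Tcf7 at base 1417 of 1512, and that of Gsk3b at base 36 of 5515. Apc held a match of 6 bases only. Over the 11763 protein-coding genes tested that have an annotated 3′ UTR, 31.1% held a match of any kind, 3.33% an 8mer, 13.7% a 7mer-m8 and 4.65% a 7mer-A1. A match is a description of the sequence and was not tested as a site.

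Promoters were shown for Sp5 and Dkk1 because each held 2 matches to TCF/LEF-type motifs. The words searched on both strands were CTTTGAA, the related word CTTTGAT, its variant CTTTGTA and the further variant CTTTGTT, in RefSeq windows of 300 bases, from 250 bases before to 50 bases after a transcript start (GRCm38.p6). A window was listed for 8 of the 10 genes, and 3 of these 8 had a match, the remaining one being Tcf7l2 with 1 match in 1 of its 2 windows. Over 32851 such windows, 16.9% held a match and 1.94% held 2 or more. For Sp5 the 250 bases before the start are printed, with the matches in capitals. The first of them is CTTTGTT on the opposite strand. For Dkk1 only 30 bases are printed, since the GENCODE gene starts 169 bases before the RefSeq start, at base 30549665, and the matches therefore lie inside that gene.
Sp5, chr2:70474673-70474922, plus strand: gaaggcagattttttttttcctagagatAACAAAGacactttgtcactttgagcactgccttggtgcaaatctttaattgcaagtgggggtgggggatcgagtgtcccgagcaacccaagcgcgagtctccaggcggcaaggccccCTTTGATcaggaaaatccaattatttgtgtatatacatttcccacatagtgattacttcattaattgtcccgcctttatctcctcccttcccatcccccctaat
Dkk1, chr19:30549586-30549615, minus strand: agCTTTGAAatcccatcccggCTTTGTTgt

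Library totals ranged from 1151649 to 4984833 counts, and 3 counts corresponded to between 0.689 and 2.65 CPM. Replicates of a group differed by more than sampling noise, with a chi-square of 2.01 to 7.99 per gene, and their Spearman correlations were 0.969 to 0.987. Dgcr8, the targeted gene, kept reads in each KO library, at 8.73 to 58.6 CPM against 26.1 to 79.6 CPM in WT libraries. For high polysomes, low polysomes and monosomes its log2 change was -1.01, -0.45 and -0.56, and reads from the 3′ end of a message need not cover the deleted part, so they do not check the deletion. Of 8 pluripotency markers, 8 were tested, and their summed level was 2485 to 4412 CPM in WT and 2352 to 3053 CPM in KO libraries. In high polysomes it was lower in KO (2352 to 3053 CPM) than in WT libraries (3636 to 4412 CPM). In monosomes it was higher in KO (2677 to 3040 CPM) than in WT libraries (2485 to 2631 CPM), and in low polysomes the genotypes overlapped. The summed level of 6 neural markers, 3 of them tested, was 57.2 to 137 CPM in WT and 24.5 to 54.9 CPM in KO libraries, with Neurog2 at 0 in the monosome fractions of both genotypes. Over 8 primitive endoderm markers, 3 of them tested, it was 20.3 to 52.7 CPM in WT and 5.09 to 26.1 CPM in KO libraries, with Foxa2 at 0 in the monosome fractions of both. The sums of 8 fibroblast markers (3 tested) were 7.64 to 14.1 CPM in WT and 3.49 to 25.5 CPM in KO libraries, lower in each KO than in each WT monosome library and overlapping in polysomes, with Dcn at 0 in 5 of the 6 groups. Those of 6 mesendoderm markers (3 tested) overlapped, at 8.81 to 19.8 and 9.01 to 15.2 CPM. The part of these other cell types in the changes below was not tested, and in bulk samples fewer cells of a type and less RNA per cell cannot be told apart.

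Sp5, Tcf7l2 and Gsk3b were higher in every KO library than in every WT library of the same fraction, as was Axin2. Tcf7, Tcf7l1 and Dkk1 separated in the opposite direction in high polysomes. Apart from Sp5, Tcf7l2, Gsk3b and Axin2, each gene overlapped between the genotypes in at least 1 fraction, and Axin1 in all 3. In monosomes the WT and KO libraries of 5 of the 10 genes did not overlap, where this held for 49.2% of all genes tested. In low polysomes it was 7 genes (57% of all genes) and in high polysomes 9 (63.6%). Sp5, which had to differ, is in each of these counts. Dkk1, which passed the CPM limit mainly through WT libraries, is in the last.

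**Figure D1:**
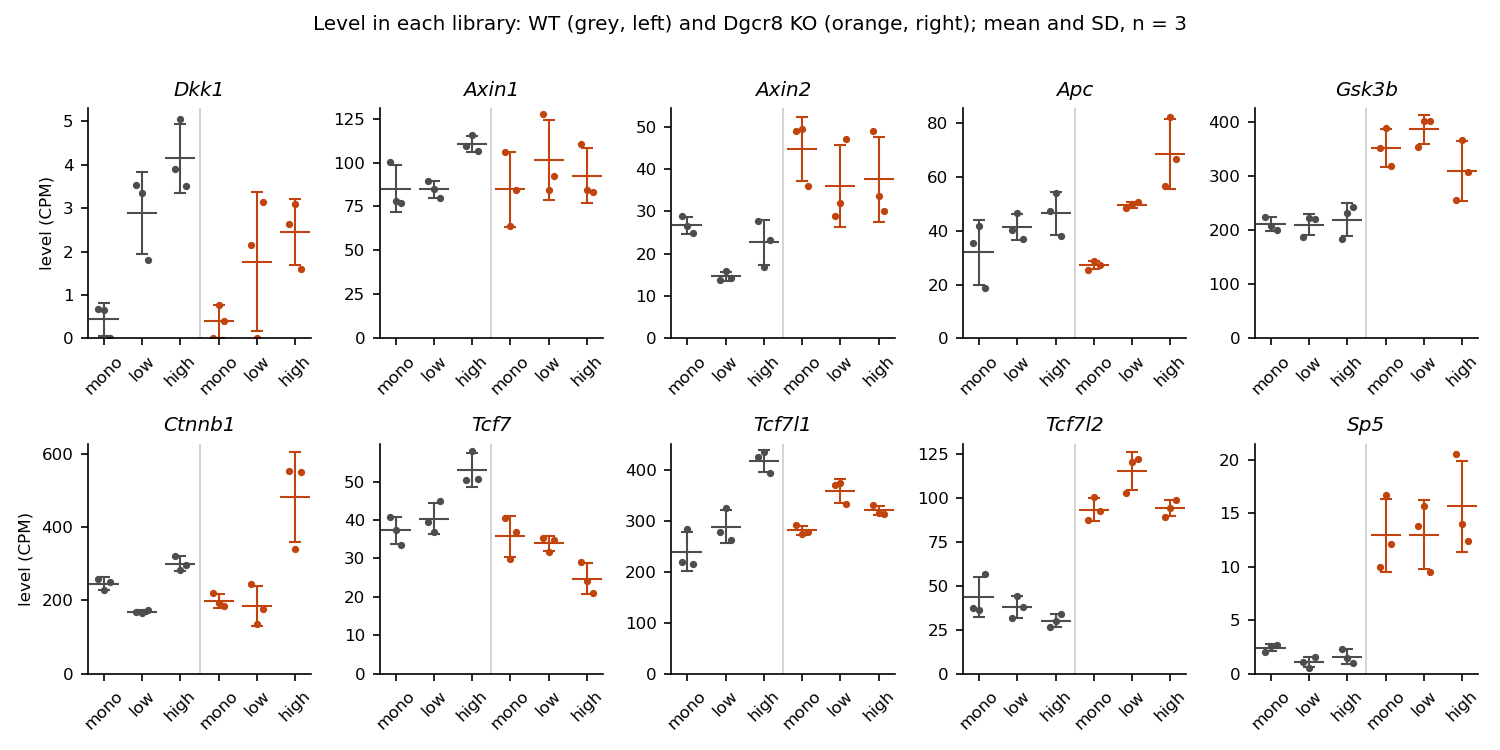
Level of each gene in CPM (vertical axes, from 0) in the 3 monosome, low polysome and high polysome libraries of WT (grey) and Dgcr8 KO (orange) ESCs, with the mean and SD of 3 libraries. Sp5 stays at or below 2.65 CPM in the WT libraries and at or above 9.46 CPM in the KO libraries.

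To compare message levels between the genotypes, KO was set against WT within each fraction in a limma-voom fit of all 12851 genes. A gene was called where the Benjamini-Hochberg adjusted p was under 0.05 and the log2 change was over 1 in size. In monosomes, 2 of the 10 genes passed as higher and 0 as lower, where 18.1% of all genes tested were called. In low polysomes 3 genes passed as higher and 0 as lower, against 25% of all genes, and in high polysomes 2 as higher and 1 as lower, against 33.1% of all genes. These shares are near those of all genes, and Sp5, which had to differ, is 1 of the genes higher in each fraction. For monosomes, low polysomes and high polysomes in turn, the median log2 change of the 10 genes was 0.09, 0.29 and 0.53, beside -0.05, 0.00 and -0.08 for all genes.

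Of the response genes, Sp5, a zinc finger factor that is a direct target of β-catenin, rose most among the 10. Sp5 (ENSMUSG00000075304, chromosome 2, 70474923 to 70477729, plus strand) had 2.01, 2.58 and 2.65 CPM in WT monosomes, 1.06, 0.558 and 1.51 CPM in WT low polysomes and 2.34, 1.44 and 0.955 CPM in WT high polysomes. KO monosomes held 10.0, 16.7 and 12.1 CPM of it, KO low polysomes 13.8, 15.7 and 9.46 CPM and KO high polysomes 20.5, 13.98 and 12.4 CPM. The genotypes did not overlap in any fraction, whereas the fractions of KO cells overlapped with each other. The log2 change of the Sp5 level was 3.21 in high polysomes (SE 0.47, adjusted p = 2.06e-07), 3.51 in low polysomes (SE 0.52, adjusted p = 3.12e-07) and 2.27 in monosomes (SE 0.52, adjusted p = 0.000608). The WT values rest on 10, 10 and 13 counts summed over 3 libraries, against 92, 130 and 161 counts in KO cells. The ratio of summed Sp5 counts, KO over WT and scaled by library size, was 5.54 (95% exact interval 2.88 to 11.9) for monosomes, 12.4 (6.55 to 26.6) for low polysomes and 9.91 (5.63 to 19.02) for high polysomes, where the intervals cover counting error only. Sp5 passed the CPM limit through KO libraries alone and had to differ, so these p-values and intervals are descriptions only.

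Axin2, a scaffold of the destruction complex and itself a response gene, rose in low polysomes. Axin2 (ENSMUSG00000000142, chromosome 11, 108920349 to 108950783, plus strand) had 13.8, 15.9 and 14.1 CPM in WT and 28.9, 32.0 and 47.0 CPM in KO low polysomes. Its monosome levels were 28.8, 26.5 and 24.8 CPM in WT and 48.9, 49.3 and 36.0 CPM in KO cells, and its high polysome levels 27.7, 16.9 and 23.2 CPM and 48.9, 33.6 and 30.1 CPM. Every KO library was above every WT library of its fraction. The log2 change of the Axin2 level was 1.27 in low polysomes (SE 0.22, adjusted p = 5.71e-06), which was called. It was 0.70 in monosomes (SE 0.24, adjusted p = 0.018) and 0.70 in high polysomes (SE 0.20, adjusted p = 0.00294), both under the fold threshold.

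Among the factors that bind DNA with β-catenin, Tcf7l2 rose in all 3 fractions. Tcf7l2 (ENSMUSG00000024985, chromosome 19, 55741820 to 55933654, plus strand) had 37.5, 36.1 and 56.6 CPM in WT monosomes and 87.3, 100.2 and 92.4 CPM in those of KO cells. In low polysomes it had 31.7, 44.1 and 37.6 CPM in WT and 103, 120.5 and 122 CPM in KO cells, and in high polysomes 26.5, 29.9 and 33.8 CPM and 89.3, 94.4 and 98.8 CPM. The lowest KO library of Tcf7l2 was above the highest WT library across all fractions. Its log2 change was 1.64 in high polysomes (SE 0.16, adjusted p = 8.57e-12), 1.60 in low polysomes (SE 0.14, adjusted p = 2.52e-12) and 1.16 in monosomes (SE 0.17, adjusted p = 1.05e-06).

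Tcf7, which encodes TCF1, had similar monosome levels in the genotypes and fell in KO high polysomes. Tcf7 (ENSMUSG00000000782, chromosome 11, 52252371 to 52283014, minus strand) had 40.9, 37.4 and 33.6 CPM in WT and 40.6, 29.9 and 36.8 CPM in KO monosomes. Its low polysome levels were 39.5, 36.8 and 44.9 CPM in WT and 35.3, 31.7 and 34.7 CPM in KO cells, just apart. In high polysomes it had 50.3, 58.0 and 50.6 CPM in WT and 29.1, 24.2 and 20.9 CPM in KO cells, without overlap. The log2 change was -1.12 in high polysomes (SE 0.16, adjusted p = 7.88e-08), and -0.99, under the fold threshold, without KO replicate 3. It was -0.10 in monosomes (SE 0.19, adjusted p = 0.719) and -0.25 in low polysomes (SE 0.15, adjusted p = 0.179), with 95% intervals of -0.48 to 0.28 and -0.55 to 0.06.

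Tcf7l1, the main TCF repressor of ESCs, was not called in any fraction. Tcf7l1 (ENSMUSG00000055799, chromosome 6, 72626378 to 72789254, minus strand) had 425, 435 and 394 CPM in WT and 331, 317 and 314 CPM in KO high polysomes, without overlap. Its log2 change was -0.38 there (SE 0.11, adjusted p = 0.00334). In low polysomes it was 0.32 (SE 0.11, adjusted p = 0.0171) and in monosomes 0.24 (SE 0.12, adjusted p = 0.128), so that the sign differed between the fractions. Of 7 genes that TCF7L1 is known to repress in ESCs (Esrrb, Nanog, Klf2, Tfcp2l1, Nr0b1, Tdgf1 and Lefty2), 1 was called higher in monosomes, 1 among low polysomes and 2 among high polysomes, and 0 were called lower. These are 14.3%, 14.3% and 28.6% of the 7, beside 18.1%, 25% and 33.1% of all genes called in either direction. Called higher over all 12851 genes were 1083, 1462 and 1946. Klf2 rose in all 3 fractions, with log2 changes of 1.07, 1.58 and 1.38 in monosomes, low polysomes and high polysomes (adjusted p = 2.81e-07, 2.59e-12 and 2.02e-11), and Lefty2 in high polysomes by 1.05 (adjusted p = 2.41e-10). With total counts, 1 of the 7 was called higher and 1 lower in high polysomes. On the TMM scale, the high polysome log2 changes of the other 5 were 0.11 for Esrrb, -0.25 for Nanog, -0.07 for Tfcp2l1, 0.27 for Nr0b1 and -0.78 for Tdgf1.

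Within the destruction complex, Gsk3b, the kinase that CHIR99021 inhibits, was higher in each KO library than in each WT library of its fraction, under the fold threshold. Gsk3b (ENSMUSG00000022812, chromosome 16, 38089001 to 38246084, plus strand) had 225, 208 and 199.8 CPM in WT and 351, 388 and 318 CPM in KO monosomes. Its low polysome levels were 188, 223 and 220.4 CPM in WT and 355, 402 and 402 CPM in KO cells. In high polysomes it had 184, 231 and 242 CPM in WT and 255, 367 and 307 CPM in KO cells. Its log2 change was 0.49 in high polysomes (SE 0.13, adjusted p = 0.000984), 0.88 in low polysomes (SE 0.13, adjusted p = 1.55e-07) and 0.73 in monosomes (SE 0.13, adjusted p = 2.89e-05). Gsk3b is the gene with the 8mer match printed above, and the part of this match in the change was not tested.

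Axin1, the constitutive scaffold of the complex (ENSMUSG00000024182, chromosome 17, 26138688 to 26195811, plus strand), overlapped between the genotypes in every fraction. It had 85.2 ± 13.3, 84.8 ± 4.90 and 111 ± 4.64 CPM in WT monosomes, low polysomes and high polysomes and 84.7 ± 21.3, 102 ± 22.9 and 92.6 ± 15.4 CPM in KO cells (mean ± SD, n = 3). Its log2 change was -0.06, 0.24 and -0.27 in that order (adjusted p = 0.834, 0.189 and 0.116), with 95% intervals that lay within -0.58 and 0.54. Apc, the large scaffold that binds β-catenin (ENSMUSG00000005871, chromosome 18, 34220924 to 34322552, plus strand), had 47.2, 54.1 and 38.2 CPM in WT and 56.5, 82.3 and 66.6 CPM in KO high polysomes, without overlap. The log2 change of Apc was 0.56 there (SE 0.16, adjusted p = 0.00275), under the fold threshold. It was -0.21 in monosomes (adjusted p = 0.523) and 0.27 in low polysomes (adjusted p = 0.17).

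Ctnnb1, the gene of β-catenin (ENSMUSG00000006932, chromosome 9, 120929216 to 120960507, plus strand), differed most clearly in high polysomes. It had 322, 283 and 296 CPM in WT and 553, 341 and 552 CPM in KO high polysomes, where KO replicate 2 lay nearer to the WT libraries than did replicates 1 and 3. In monosomes it had 259, 227 and 251.1 CPM in WT and 219, 193 and 183 CPM in KO cells, and in low polysomes 168, 164 and 172 CPM and 244, 135 and 176 CPM. The log2 change was 0.65 in high polysomes (SE 0.15, adjusted p = 0.000227), under the fold threshold. Leaving out 1 gradient moved it between 0.53 (without KO replicate 3) and 0.88 (without KO replicate 2). The log2 change of Ctnnb1 was -0.31 in monosomes (SE 0.16, adjusted p = 0.132) and 0.10 in low polysomes (SE 0.16, adjusted p = 0.636).

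Dkk1, the secreted inhibitor (ENSMUSG00000024868, chromosome 19, 30545863 to 30549665, minus strand), was close to the limit of detection. It had 1, 1 and 0 counts in the WT monosome libraries, 10, 12 and 6 in low polysomes and 10, 14 and 11 in high polysomes. In KO cells it had 0, 2 and 1 counts in monosomes, 7, 0 and 12 in low polysomes and 8, 10 and 7 in high polysomes. In high polysomes these were 3.90, 5.05 and 3.503 CPM in WT and 2.65, 3.11 and 1.61 CPM in KO cells, without overlap, and the ratio of summed counts, KO over WT, was 0.572 (95% exact interval 0.328 to 0.983). In low polysomes the ratio was 0.649 (0.343 to 1.205), with KO replicate 2 at 0 counts, where 3 counts would be 0.961 CPM. Both intervals cover counting error only and leave out the spread between gradients. Dkk1 passed the CPM limit mainly through WT libraries, with 3 WT and 0 KO high polysome libraries at 3 CPM. The filter thus favoured a KO level below that of WT. In the limma fit, the log2 change of Dkk1 was -0.82 in high polysomes (SE 0.50, adjusted p = 0.159), -1.36 in low polysomes (SE 0.65, adjusted p = 0.0787) and -0.47 in monosomes (SE 1.07, adjusted p = 0.768), and none was called. The low polysome value moved between -2.24 and -0.07 over the fits that left out 1 gradient, and it was called in the fits without WT replicate 3, KO replicate 1 or KO replicate 3. A difference of Dkk1 in monosomes was not detectable at this depth.

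**Figure D2:**
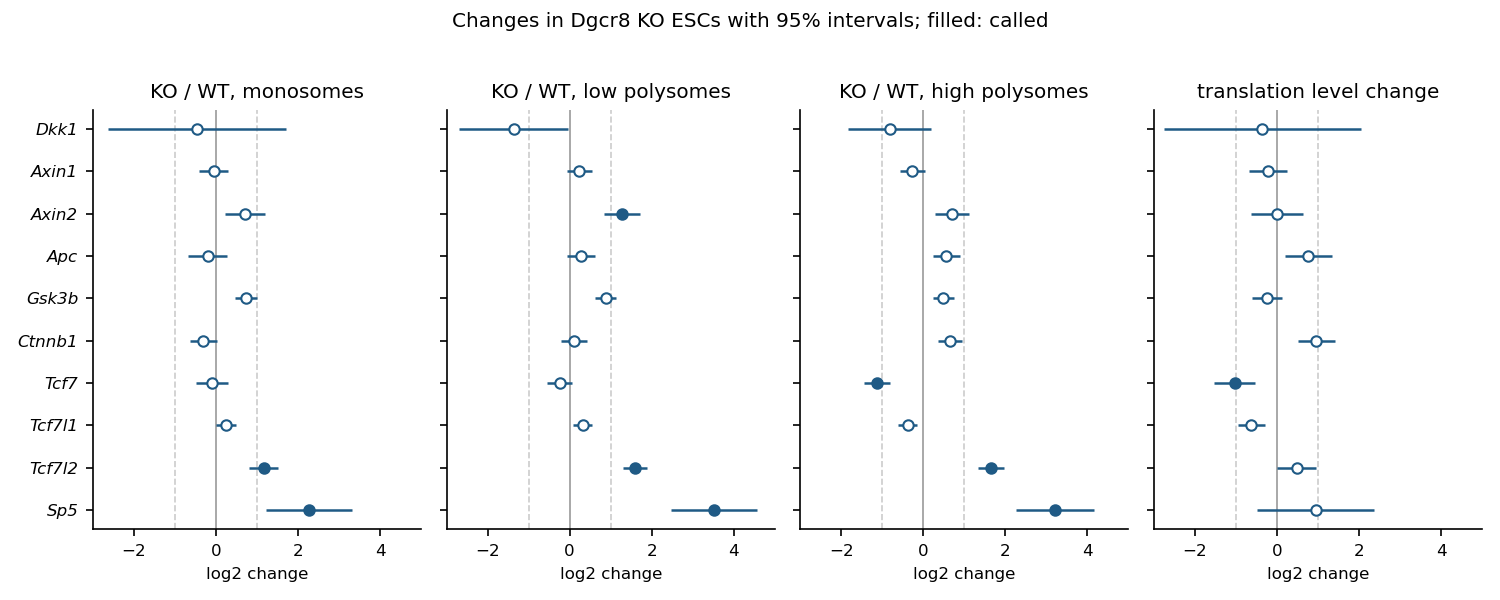
Log2 change in Dgcr8 KO against WT ESCs (horizontal axes) in each fraction and in the translation level, for each gene, with 95% intervals from the limma fit. Filled points are called, dashed lines mark a log2 change of 1 in size. Sp5 and Tcf7l2 are called in all 3 fractions, and Tcf7 in high polysomes and in its translation level.

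To ask whether ribosome loading differed, the translation level of a gene, its high polysome to monosome ratio, was compared between the genotypes as the interaction of genotype and fraction. Of the 10 genes, 0 were called higher and 1 lower, where 15.1% of all genes were called. An adjusted p under 0.05 was reached by 4 of the 10 genes (40%) and by 28.2% of all genes. The median log2 change of the 10 genes was -0.11, beside 0.01 for all genes. Scaling each library by its total, not by TMM factors, moved the median over all genes by -0.33 for the translation level change, -0.22 for high polysomes and 0.10 for monosomes, and the changes given are on the TMM scale.

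The called gene was Tcf7. Its log2 high polysome to monosome ratio was 0.30, 0.62 and 0.58 in the 3 WT gradients and -0.47, -0.30 and -0.80 in the 3 KO gradients. All WT gradients were thus above 0 and all KO gradients below 0. The log2 change in translation level of Tcf7 was -1.03 (SE 0.25, adjusted p = 0.00145). Without WT replicate 2, WT replicate 3 or KO replicate 3 it was -0.994, -0.999 and -0.856, under the fold threshold, with an adjusted p of 0.026 at most over the fits that left out 1 gradient. Tcf7 is also the gene with the 7mer-m8 match near the end of its 3′ UTR, and the part of this match in the change was not tested.

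Tcf7l1 had a change of the same sign that passed the adjusted p and not the fold threshold. Its translation level was 0.95, 0.62 and 0.87 on the log2 scale in WT gradients and 0.19, 0.20 and 0.18 in KO gradients, without overlap. The log2 change was -0.62 (SE 0.17, adjusted p = 0.00403). Within WT cells the ratio was 0.81 (adjusted p = 3.11e-07) and within KO cells 0.19 (adjusted p = 0.144).

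Ctnnb1 and Apc had positive changes. The translation level of Ctnnb1 was 0.31, 0.31 and 0.24 in WT gradients and 1.33, 0.82 and 1.59 in KO gradients, again without overlap. Its log2 change was 0.97 (SE 0.22, adjusted p = 0.000834), just under the fold threshold. It was called at 1.18 without KO replicate 2 and at 1.002 with DESeq2. Without KO replicate 3 it was 0.79 and was not called. For Apc the ratio was 0.40, 0.36 and 1.01 in WT and 1.12, 1.495 and 1.26 in KO gradients, and WT replicate 3, with 18.6 CPM in monosomes, lay nearest to the KO gradients. The log2 change of Apc was 0.77 (SE 0.29, adjusted p = 0.0398), and the adjusted p reached 0.185 when 1 gradient was left out, 0.156 without a filter and 0.261 with total counts.

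The other 6 genes did not pass the adjusted p. The log2 change in translation level was 0.48 for Tcf7l2 (SE 0.23, adjusted p = 0.123), 0.95 for Sp5 (SE 0.70, adjusted p = 0.34) and -0.24 for Gsk3b (SE 0.18, adjusted p = 0.353). It was -0.22 for Axin1 (SE 0.23, adjusted p = 0.527), -0.00 for Axin2 (SE 0.31, adjusted p = 1) and -0.35 for Dkk1 (SE 1.19, adjusted p = 0.864). The 95% interval was -0.64 to 0.63 for Axin2 and -2.75 to 2.05 for Dkk1, the widest of the 10 genes.

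**Figure D3:**
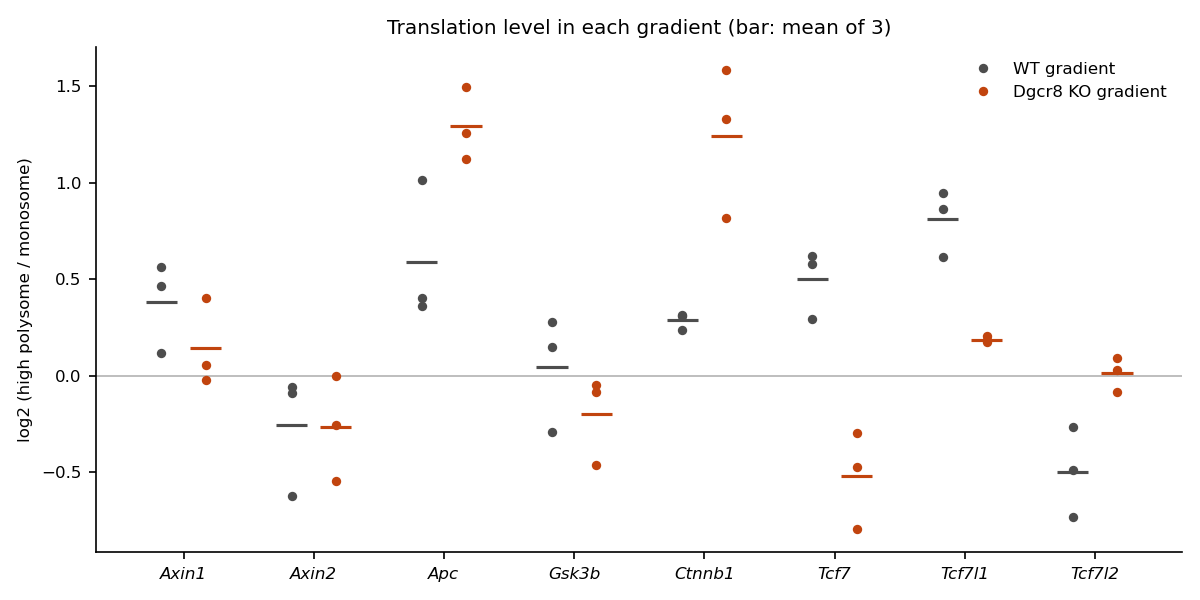
Log2 ratio of high polysome to monosome level (vertical axis) in each of the 3 WT (grey) and 3 Dgcr8 KO (orange) gradients, with the mean as a bar, for the 8 genes with more than 3 counts in every library. The Tcf7 gradients lie on opposite sides of 0. Those of Ctnnb1, Apc, Tcf7l1 and Tcf7l2 do not overlap, and those of Axin1, Axin2 and Gsk3b do. The share of all genes without overlap was not determined for this ratio.

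Within each genotype, the translation level itself was tested as high polysomes against monosomes. In WT cells, 1 of the 10 genes was called higher and 0 lower, against 30.1% of all genes called, and in KO cells 3 higher and 0 lower, against 43% of all genes. Dkk1 was called in both, with log2 ratios of 2.496 (SE 0.83, adjusted p = 0.0106) and 2.15 (SE 0.84, adjusted p = 0.0238). Dkk1 passed the CPM limit through polysome libraries alone, with 0 monosome libraries at 3 CPM, so the filter favoured a ratio above 0. Its monosome libraries held 2 counts in all in WT and 3 in KO cells. The ratio of summed counts is therefore given as well, with an interval that covers counting error and not the spread between gradients. That ratio was 8.62 (95% exact interval 2.21 to 73.9) in WT and 5.45 (1.66 to 28.2) in KO cells. Low polysomes against monosomes gave 5.998 (1.51 to 52.0) and 4.31 (1.27 to 22.7). Dkk1 thus had a larger share of the reads in polysome than in monosome libraries of both genotypes. Since each library is scaled to its own total, these ratios cannot tell where most Dkk1 messages lay. In KO cells Ctnnb1 and Apc were called as well, at 1.25 (SE 0.15, adjusted p = 2.51e-09) and 1.30 (SE 0.19, adjusted p = 1e-07). In WT cells these genes had 0.29 (adjusted p = 0.126) and 0.53 (adjusted p = 0.0378).

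Over all protein-coding genes tested, the change in translation level was larger for longer coding sequences, with a Spearman rho of 0.558 across 11763 genes, which are not independent replicates. The 10 genes span coding lengths from 816 bases in Dkk1 to 8526 bases in Apc. Against a smooth trend on coding length, the change of Apc was 0.06 above the trend, whereas that of Ctnnb1 (2343 bases) was 0.60 above it. Tcf7 (909 bases) lay at -0.75 from the trend and Tcf7l1 (1755 bases) at -0.82. Axin1 and Axin2, of 2604 and 2520 bases, lay at -0.64 and -0.41, and Tcf7l2 (1377 bases) at 0.43. The part of coding length in these changes was not tested.

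**Figure D4:**
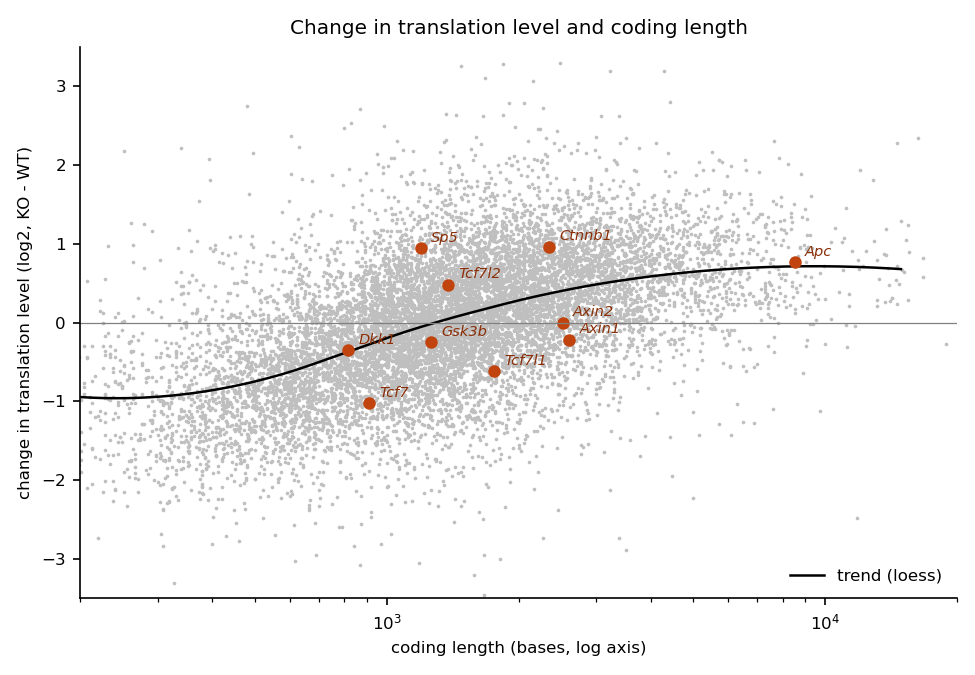
Change in translation level (vertical axis, log2, KO minus WT) against coding length (horizontal log axis, bases) for 11763 protein-coding genes (grey, 57 of them outside the axes), with a loess trend (black) and the 10 genes (orange). Apc lies on the trend at 0.77, and Tcf7, Tcf7l1 and Axin1 lie below it.

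To place the 10 genes in the pathway, a list of 108 Wnt genes that contains them was examined, of which 71 were tested. Like the other gene lists, it was chosen with earlier results of these data known. Its shares, and those of its groups below, are thus set beside all genes as descriptions only. KO against WT, 25 passed as higher and 7 as lower in high polysomes, which is 45.1% of the list against 33.1% of all genes, with a median log2 change of 0.53. In monosomes 14 passed as higher and 3 as lower (23.9% against 18.1%), and 19 and 4 did so among low polysomes (32.4% against 25%). For the translation level, 8 were called higher and 3 lower (15.5% against 15.1%), and with total counts as scaling 2 higher and 5 lower. Of the 71 genes, 8 (Apcdd1, Dkk1, Frzb, Nkd1, Rspo1, Sp5, Wnt11 and Wnt3) did not reach the CPM limit in each genotype on its own, so their filter may rest on the group where they were high. Over the other 63 genes, counted after the values were seen, 23 passed as higher and 6 as lower in high polysomes (46%).

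On the ligand side, 4 of 7 genes tested for Wnt ligands and their secretion were called higher in high polysomes and 0 lower, where 33.1% of all genes were called. Without Wnt3 and Wnt11, which did not reach the CPM limit in each genotype, it was 3 of 5. Wnt11, 1 of the 4, reached it in 0 WT and 9 KO libraries and had to differ. Porcn, the acyltransferase that lipid-modifies Wnt proteins, rose by 4.33 (adjusted p = 4.69e-21), Wls, which carries Wnt proteins to the surface, by 2.52 (adjusted p = 1.37e-18), and the ligand Wnt5b by 2.22 (adjusted p = 8.16e-09). Of 13 receptor genes, 8 (61.5%) were called higher and 0 lower in high polysomes, again beside 33.1% of all genes, and 5 higher and 1 lower with total counts. Fzd7 rose by 2.02 (adjusted p = 3.34e-12) and Fzd8 by 1.74 (adjusted p = 2.34e-05). The group of R-spondins and receptor turnover had 3 genes tested. There 2 were called higher and 1 lower in high polysomes, beside 33.1% of all genes called, and 1 and 1 with total counts. Lgr4 changed by 1.44 (adjusted p = 1.38e-12) and Rspo1 by -3.47 (adjusted p = 0.000152). Rspo1 reached the CPM limit in WT libraries alone and had to differ. Of 10 extracellular inhibitors, Dkk1 included, 2 were called higher and 0 lower in high polysomes, and 1 and 0 with total counts. Over all genes tested, 33.1% were called there, 1946 of 12851 higher and 2303 lower. Among the inhibitors, Notum, an enzyme that removes the lipid from Wnt proteins, rose by 3.83 (adjusted p = 7.52e-20).

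Of the 18 genes of the dishevelled and destruction complex group, 2 were called higher and 2 lower in high polysomes, below the 33.1% of all genes, and 1 higher and 2 lower with total counts. Csnk1e, a casein kinase, fell by 1.07 on the log2 scale (adjusted p = 1.13e-10). In the group of catenins and nuclear factors, 4 of 16 were called higher, Tcf7l2 among them, and 4 lower, Tcf7 among them (50% against 33.1%), and with total counts 3 and 4. Chd8, a chromatin remodeller that binds β-catenin, rose by 1.68 (adjusted p = 5.2e-14). Also lower were Ctnnbip1, which blocks the binding of β-catenin to TCF, at -1.75 (adjusted p = 1.09e-14), the co-repressor Aes at -1.64 (adjusted p = 4.98e-11) and Pygo1, a β-catenin co-factor, at -1.33 (adjusted p = 0.000104).

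Of 9 response genes tested, Sp5 and Axin2 included, 0 were called lower in any fraction, and 6 were called higher in high polysomes, 7 in low polysomes and 5 in monosomes, where 33.1%, 25% and 18.1% of all genes were called. Sp5, which had to differ, is 1 of them in each fraction. Without Sp5 and Nkd1, which did not reach the CPM limit in each genotype, 5, 6 and 4 of 7 were called higher. With total counts, 4 of the 9 were called higher in high polysomes. Sp5, Notum, Lef1, Ccnd1 and Tnfrsf19 were called in all 3 fractions. Notum changed by 3.29, 3.64 and 3.83 in monosomes, low polysomes and high polysomes, Ccnd1, the gene of cyclin D1, by 1.18, 1.53 and 1.62, and Tnfrsf19 by 1.51, 1.65 and 1.62. Lef1 changed by 2.05, 1.75 and 1.07, from 1.67, 2.76 and 4.30 CPM in WT to 7.53, 9.35 and 9.24 CPM in KO cells. Znrf3, a ligase that removes Frizzled receptors, was called in low and high polysomes, at 1.03 and 1.11. Cdx1 and Nkd1 were not called in any fraction. In monosomes, low polysomes and high polysomes, Cdx1 had mean levels of 28.1, 44.4 and 16.6 CPM in WT and 36.3, 30.9 and 12.9 CPM in KO cells. Those of Nkd1 were 2.31, 2.01 and 1.22 CPM in WT and 1.02, 2.03 and 0.574 CPM in KO cells. The translation level of 0 of the 9 response genes was called as changed, where 15.1% of all genes were called, and with total counts 1 was called lower.

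**Figure D5:**
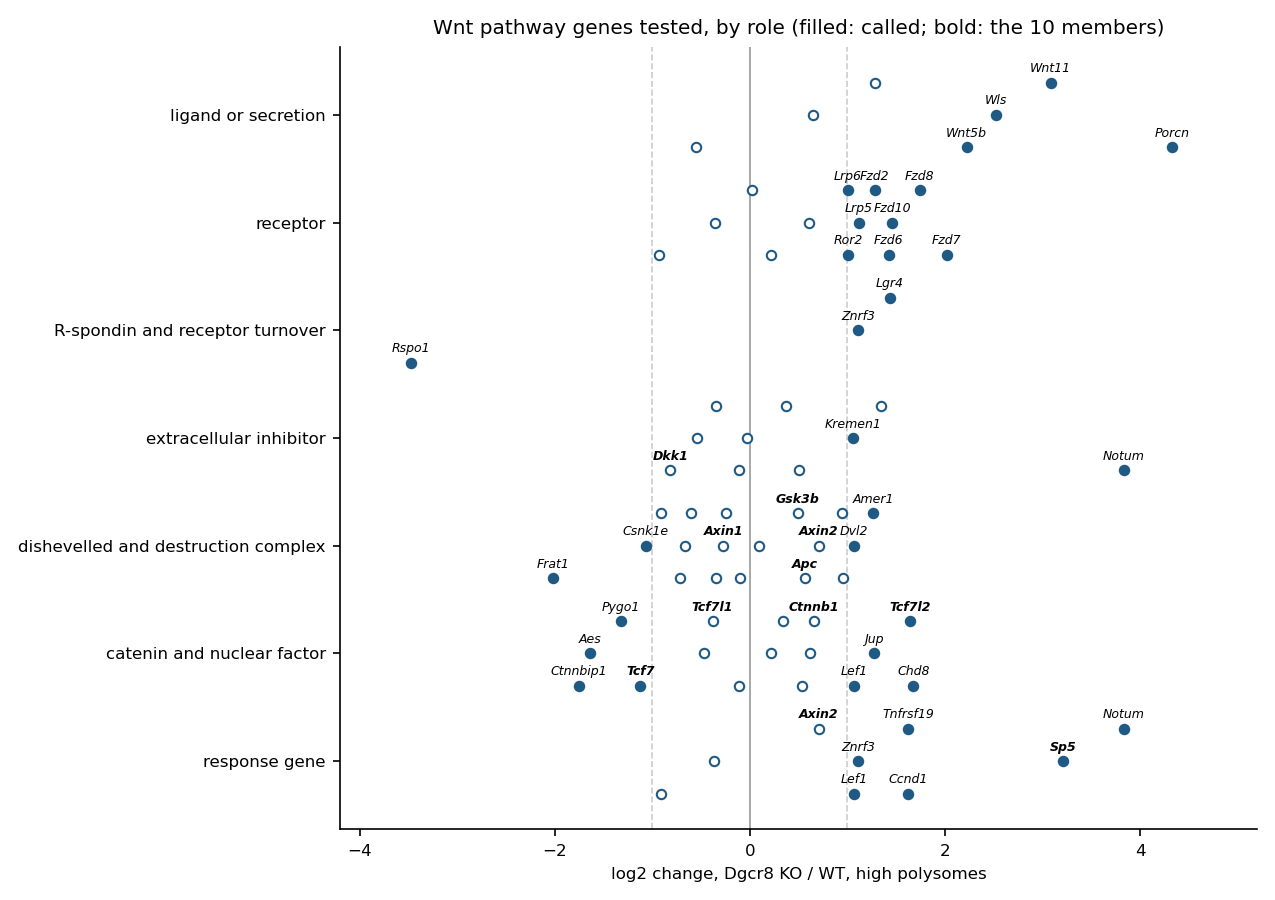
Log2 change in high polysomes, KO against WT (horizontal axis), of each Wnt list gene tested, in 7 groups by role (vertical axis; small vertical offsets only separate points). Filled points are called, the 10 genes described are in bold, and Axin2, Lef1, Znrf3, Nkd1 and Notum belong to more than 1 group. Response genes, receptors, extracellular inhibitors and the ligand and secretion genes have called points on the right only.

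In the translation level, the Wnt list genes called higher with the largest changes were Amer1, a binding partner of APC, at 1.74 (adjusted p = 0.000141), Chd8 at 1.501 (adjusted p = 1.47e-06), Fzd7 at 1.28 (adjusted p = 0.00977), Bcl9l at 1.21 (adjusted p = 0.00103), Dvl2 at 1.19 (adjusted p = 9.79e-06), Wls at 1.17 (adjusted p = 0.000762), Tnks at 1.12 (adjusted p = 0.000738) and Lrp6 at 1.09 (adjusted p = 0.000328). Besides Tcf7, Gsk3a, the paralog of Gsk3b, at -1.12 (adjusted p = 0.000998) and Ctnnbip1 at -1.01 (adjusted p = 3.23e-05) were called lower. With total counts, Amer1 (1.41) and Chd8 (1.17) were still called higher and Gsk3a (-1.45) and Ctnnbip1 (-1.34) lower, whereas Fzd7, Bcl9l, Dvl2, Wls, Tnks and Lrp6 lost their call, at 0.76 to 0.95. The change of Gsk3b itself was -0.24 and was not called.

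The genes whose levels followed those of Axin2 most closely over the 18 libraries were Zic2 (Pearson r = 0.887), Vim (0.887), Tbcel (0.882), Sox13 (0.880) and Slc6a15 (0.877). For Dkk1 they were H2-Q10 (0.869), Rhox6 (0.853), Bzw1 (0.850), Triobp (0.840) and Tmem101 (0.839), on counts of 0 to 14 for Dkk1. These values are descriptions, and the 18 points share genotype, fraction and depth.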

How the data were processed

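The authors deposited raw counts of QuantSeq 3′ reads per gene. They trimmed with cutadapt 1.14, aligned to mm10 with STAR 2.5.3a, kept uniquely aligned reads and counted them with featureCounts 1.5.3 on GENCODE M14. Molecular identifiers were not mentioned, so PCR copies count as reads. Dropping multiply aligned reads makes counts of near-identical copies uncertain. Entries for 92 spike-ins, at most 0.00215% of a library, entered neither the totals nor the fits.

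Genes with 3 CPM in at least 3 of 18 libraries were fitted with limma-voom (limma 3.58.1, R 4.3.3) with TMM factors (edgeR 4.0.16), 1 mean per group, two-sided tests and Benjamini-Hochberg adjustment over 12851 genes. limma, the CPM filter, the interaction term and the call thresholds follow the study, and the voom weights and TMM scaling were chosen here. Levels are CPM over TMM-scaled totals. Ratios per gradient used a prior count of 2. Exact binomial intervals cover counting error only. The procedure was tested on simulated data for the translation level change. It recovered 77.1% of genes with a true log2 change of 1.5 in size and 81.3% of those with 2. There were 5 false calls. Alternatives were other scalings, filters, edgeR and DESeq2 1.42.0 tests, the libraries compared only, a replicate block and leaving out each gradient. The members and gene lists were chosen with earlier results of these data known. Members are always named, other Wnt list genes when called with a mean of 20 counts or more, up to 8 in each direction, and for likeness the 5 genes with the highest r. Cdx1, Lef1, Lgr4, Tnfrsf19, Znrf3 and the genes that did not reach the CPM limit in each genotype were named after their values were seen.

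Fractions of 1 number share a gradient per the methods. Over 18 such pairs, deviations from group means correlated at 0.03 to 0.14 (median 0.06). Nothing states that the gradients came from separate cultures, so p-values measure the spread between these gradients. Coordinates are 1-based on GRCm38, gene models are from GENCODE M21, where 51274 genes matched, and microRNA and promoter sequences are from RefSeq.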

Additional observations from a re-analysis of the deposited data

Results flagged for a closer look

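The translation level of Tcf7 differed between the genotypes by the interaction test, with a log2 change of -1.03 (limma, adjusted p = 0.00145), and all 3 WT gradients lay above 0 and all 3 KO gradients below 0. With other scalings, filters and tests and with the block, the change lay between -1.36 (total counts) and -1.02 (DESeq2 size factors). Subtraction of the coding length trend gave -0.75, with no test. The cause was not tested.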

How the results depend on the processing

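The counts of Wnt list genes called stayed within 1.5 times of those given above under DESeq2 size factors, a stricter filter, edgeR, DESeq2 and the libraries compared only, and over genes that reach the CPM limit in each genotype (chosen after seeing the data, 11 to 32 called over the 6 comparisons). Total counts in place of TMM factors gave 7 for the translation level change, in place of 11 and with the split moved from 8 higher and 3 lower to 2 and 5. Without a filter, 31 were called for the translation level in WT, in place of 18. With no fold threshold the counts were 23 for the translation level change, 31 in monosomes, 42 for low polysomes, 49 for high polysomes and 40 for the translation level in WT. Leaving out 1 gradient gave 9 to 14 for the translation level change, 15 to 18 in monosomes, 22 to 24 for low polysomes, 28 to 33 for high polysomes, and 15 to 19 and 32 to 35 for the translation level in WT and KO.

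With the gradient, or the replicate number for KO against WT, as a replicate block, 12 genes were called for the translation level change, 18 in monosomes, 24 for low polysomes, 33 for high polysomes and 17 and 34 for the translation level in WT and KO, and the block changed no call of the 10 genes (Tcf7 at -1.03). Between genotypes the numbers share only a number (correlation of deviations 0.00 to 0.10 over 9 pairs).

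Changes of sign were all in values that were not called. For KO against WT in monosomes they were Axin1 at 0.0490 (total counts) and 0.00783 (no filter) and Tcf7 at 0.00638 (total counts). For the translation level they were Axin2 at 0.00599 in the change (DESeq2 size factors), Gsk3b at -0.0378 in WT and Tcf7l2 at -0.10 in KO (stricter filter), and, with total counts in KO, Axin1 at -0.0892, Tcf7l1 at -0.0586, Tcf7l2 at -0.24 and Sp5 at -0.0599. When 1 gradient was left out, the sign turned in the ranges of the translation level change of Dkk1 (-0.91 to 0.0379) and Axin2 (-0.21 to 0.14), the monosome change of Dkk1 (-0.90 to 0.00212), Axin1 (-0.22 to 0.14), Apc (-0.50 to 0.0890) and Tcf7 (-0.18 to 0.0314), the low polysome change of Ctnnb1 (-0.12 to 0.30), the WT translation level of Gsk3b (-0.0689 to 0.21) and the KO translation level of Tcf7l2 (-0.0343 to 0.0636) and Sp5 (-0.13 to 0.44). The translation level of Dkk1 lost its call in WT without WT replicate 2 or 3 and in KO without KO replicate 1. The cause was not tested. Dkk1 and Sp5 in WT cells are limited by depth.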
